A study of Mus musculus with 12 samples.

Results

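Bach1 was silenced by RNA interference in proliferating C2C12 cells, and gene expression was compared with that of control cells before muscle differentiation was induced. C2C12 is an established mouse myoblast line that divides in serum-rich medium and fuses into myotubes once serum is withdrawn. The comparison covered the arrays whose labels give time point Day0, which were 6 of the 12 arrays of the series. Of these, 3 were from cells transfected with an siRNA against Bach1 (siBach1) and 3 from cells transfected with a negative control siRNA (siControl). Both groups were C2C12 cells kept in growth medium with foetal bovine serum after transfection, and day 0 was the time of confluence, at which differentiation with horse serum would begin. The 6 day 2 arrays, from cells given the same siRNAs and labelled Day2, in differentiation, were used only where stated. The arrays used 1 siRNA against Bach1 in 1 cell line, so that the loss of Bach1 and other effects of that siRNA cannot be told apart. Nothing in the labels says that the 3 arrays of a group came from separate cultures, and the p-values measure only the spread between these samples.

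Bach1 is a haem-binding transcription repressor of the basic leucine zipper family. It pairs with small Maf proteins on Maf recognition elements, the sites that the activator Nrf2 (gene Nfe2l2) also uses, and leaves DNA when haem binds to it. Its best known target is Hmox1, which encodes haem oxygenase-1, the enzyme that opens the haem ring and releases iron, carbon monoxide and biliverdin. Genes of ferritin, iron export and glutathione synthesis are other known targets. In muscle, the myoblast is held in the cell cycle by cyclins and their kinases until the myogenic factors MyoD and myogenin drive exit and fusion.

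Expression is given as a level, the log2 signal of a probe minus the 75th percentile of its array, so that 0 marks a probe as bright as that percentile. A difference is the mean siBach1 level minus the mean siControl level, and 1 unit of it is a 2-fold change. Between 26920 and 32869 of 56605 probes, or 47.6% to 58.1%, were well above background on a day 0 array, and 29664 probes for 15642 named genes were tested. The median difference over all tested probes was 0.09. Replicates 1 and 2 were on 1 slide and replicate 3 on another, and siControl and siBach1 arrays had separate columns of positions, so that position and siRNA cannot be told apart. Of 9 myoblast markers 8 were tested, and all 8, among them Myod1, Cdh15 and Des, were well above background in both groups. Of 8 endothelial markers 3 were tested, of which Pecam1 was well above background on 5 of the 6 arrays, Cldn5 on 1 and Vwf on none. Of 9 neuron and glia markers 5 were tested, and all 5 were well above background on the 6 arrays. The array medians of the 6 macrophage markers tested were 1.07 to 1.16 in siControl and 1.13 to 1.25 in siBach1 cells, and 1 of these markers passed the test used below, Cd68, with differences of -0.48 and -0.95 on its probes. The part of such cells or markers in the results below was not tested, and fewer cells of a type and less RNA per cell cannot be told apart.

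Bach1 mRNA was reduced on every siBach1 array, and of the named genes that rose Hmox1 had the largest difference. The level of Bach1, which 1 probe measured, was 1.73, 1.55 and 1.78 in siControl cells and 0.18, -0.22 and -0.22 in siBach1 cells. The values of the groups were apart by more than the range within either group. The difference was -1.77 ± 0.11 (SE, n = 3 per group), a 3.42-fold lower signal, with an adjusted p of 1.2e-05 in limma. Hmox1 had levels of 3.46, 3.30 and 3.76 in siControl cells and of 6.66, 6.74 and 7.02 in siBach1 cells. It rose by 3.30 ± 0.14, or 9.86-fold (adjusted p = 1.4e-06). The adjusted p is limma's moderated test after Benjamini-Hochberg adjustment over all tested probes, and a probe passed where it was under 0.05. A probe was called where it passed and the change was at least 2-fold. By the brightest probe of each gene, 10.1% of all tested genes passed higher and 9.81% lower. The list counts below stand beside these shares.

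**Figure D1:**
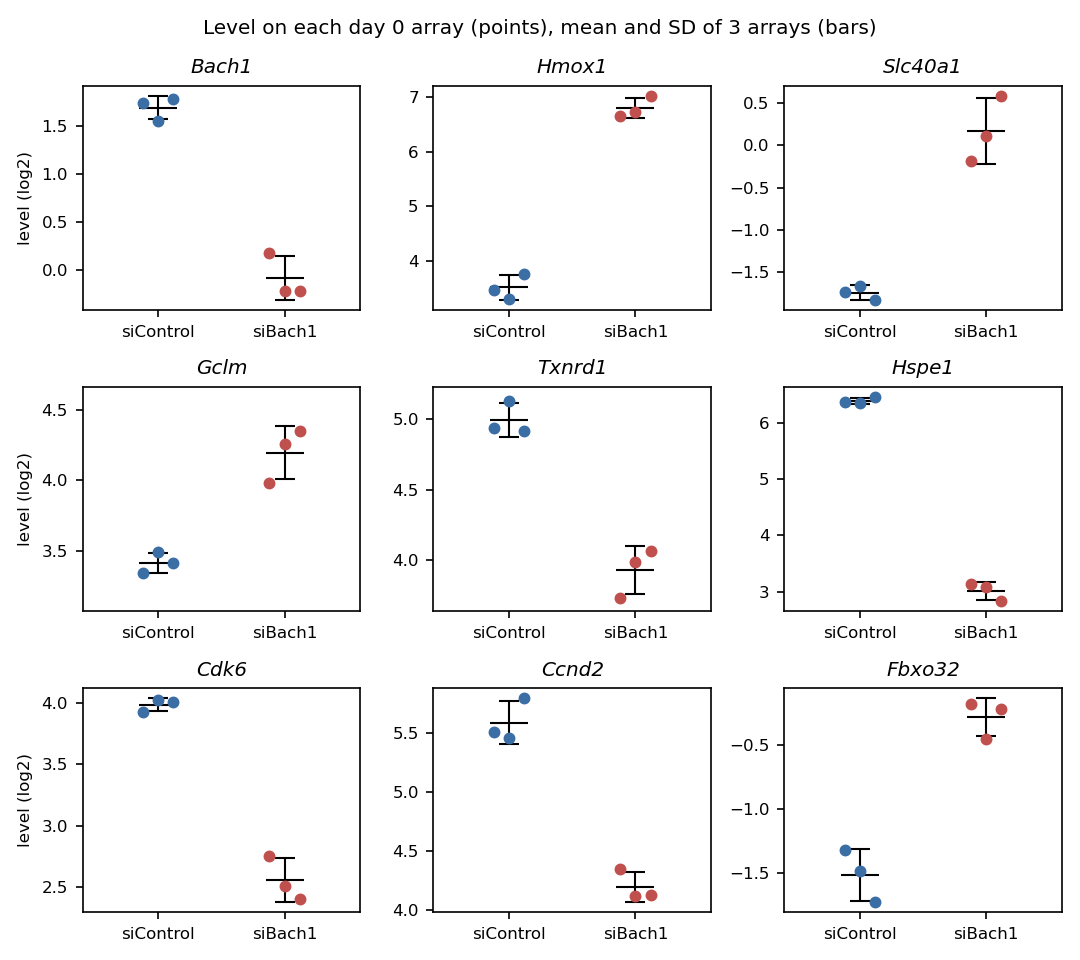
Level of 9 genes on each of the 6 day 0 arrays. The vertical axes give the log2 signal relative to the 75th percentile of the array, on a scale of its own for each gene. Points are arrays in the order of replicates 1 to 3, and bars are the mean and SD of 3 arrays. In all 9 panels the siControl and siBach1 points are apart.

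Of the other members of the Bach, small Maf and Nrf families, 1 gene rose. The list had 12 genes, of which 11 were tested, and apart from Bach1 only Maf passed, beside 10.1% of all tested genes that passed higher and 9.81% that passed lower. Maf encodes c-Maf, a large Maf protein. Its probes gave differences of 0.76 ± 0.13 (adjusted p = 0.0029) and 0.56 ± 0.14 (adjusted p = 0.024), and the probe with the smaller change no longer passed without siControl replicate 3 or without siBach1 replicate 1 or 2. Nfe2l2, which encodes Nrf2, had a difference of -0.03 ± 0.10 on its brighter probe (adjusted p = 0.9). Among the small Maf genes, Mafk had 0.24 ± 0.13 (adjusted p = 0.23), Maff -0.19 ± 0.09 (adjusted p = 0.18) and Mafg 0.06 ± 0.09 on its brighter probe (adjusted p = 0.69). Keap1, whose product holds Nrf2 in check, had -0.28 ± 0.10 (adjusted p = 0.076), and it passed as lower with replicate as a block, a fit that compares arrays of the same number, which shared a slide and row. Bach2, the paralogue of Bach1, was not well above background on any of the 6 arrays.

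Genes of haem breakdown and iron handling moved in both directions. Of 23 genes on the list 21 were tested. Of these 5 rose (23.8%) and 2 fell (9.52%), beside 10.1% and 9.81% of all tested genes. The median difference was 0.11, beside 0.08 over all tested genes. The 5 rises were 2 without siControl replicate 1 at day 0 and 3 after quantile normalization. Slc40a1 encodes ferroportin, the iron exporter. Its levels were -1.73, -1.66 and -1.83 in siControl cells and -0.19, 0.11 and 0.58 in siBach1 cells, and it rose by 1.91 ± 0.23 (adjusted p = 0.00036). All 3 siBach1 arrays were above the siControl arrays, with a wider spread among themselves. Fth1, the ferritin heavy chain, rose by 0.31 ± 0.09 (adjusted p = 0.036), but it no longer passed when any of 5 of the 6 day 0 arrays was left out. Ftl1, the ferritin light chain, had 0.14 ± 0.14 and 0.07 ± 0.21 on its probes. Blvrb, a biliverdin reductase, had -0.11 ± 0.13 (adjusted p = 0.63). Mfsd7b, which encodes the haem exporter FLVCR1, fell from 0.68, 0.75 and 0.71 to -0.39, -0.67 and -0.41, by 1.20 ± 0.11 (adjusted p = 6.3e-05), while another of its probes, which did not pass, had a difference of 0.44. Slc25a28, a mitochondrial iron importer, fell by 0.49 ± 0.08 (adjusted p = 0.0034).

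In haem synthesis, 4 of 11 tested genes rose and 1 fell, with a median of 0.23. Alas1, the first and rate-limiting enzyme, rose from levels of 3.28, 3.41 and 3.42 to 3.96, 4.11 and 4.34, by 0.76 ± 0.11 (adjusted p = 0.00092), and its 3 probes all passed. Uros and Urod, which act in the middle of the pathway, rose by 0.60 ± 0.12 and 0.48 ± 0.08. Fech, ferrochelatase, which inserts iron in the last step, fell from 4.27, 4.21 and 4.28 to 3.57, 3.53 and 3.26, by 0.80 ± 0.09 (adjusted p = 0.00036). The enzymes at the start and end of the pathway thus moved in opposite directions, each beyond the spread of its 3 arrays.

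Antioxidant genes held rises and falls, in shares near those of all tested genes. Of 35 tested genes of glutathione and thioredoxin metabolism, 5 rose (14.3%) and 3 fell (8.57%), beside 10.1% and 9.81% of all tested genes. Their median was 0.19, and 0.06 after quantile normalization, which lowered the median of all tested genes from 0.08 to 0.03. The 5 rises were 2 under that normalization and 2 without siControl replicate 1 at day 0. Gclm, the modifier subunit of the enzyme that limits glutathione synthesis, rose from 3.34, 3.49 and 3.41 to 3.98, 4.26 and 4.36, by 0.79 ± 0.11 (adjusted p = 0.00089). Gclc, the catalytic subunit, had 0.24 ± 0.09 (adjusted p = 0.11), although its groups did not overlap. Prdx6, a peroxiredoxin, rose by 0.40 ± 0.08 (adjusted p = 0.0098), and no longer passed after quantile normalization. Txnrd1, cytosolic thioredoxin reductase, fell on both of its probes, by 0.77 ± 0.14 and by 1.07 ± 0.12 (adjusted p = 0.0046 and 0.00024). Gsr, glutathione reductase, fell by 0.70 ± 0.11 (adjusted p = 0.0021). Srxn1, which encodes sulfiredoxin, fell by 0.57 ± 0.15 (adjusted p = 0.028), and no longer passed when any of 5 of the 6 day 0 arrays was left out. Nqo1, a quinone reductase, had -0.44 ± 0.17 (adjusted p = 0.11), and passed as lower with replicate as a block. Slc7a11, the cystine transporter, had -0.76 ± 0.58 (adjusted p = 0.41).

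Of 36 tested detoxification enzymes 7 rose and 2 fell, and 11 rose and 5 fell with replicate as a block. Without siControl replicate 2 at day 0, 4 rose, and without siControl replicate 1 at day 0, 1 fell. Mgst2, a microsomal glutathione transferase, rose from 2.13, 2.28 and 1.91 to 3.35, 3.67 and 3.45, or 2.61-fold (adjusted p = 0.0035). Cyp1b1, a cytochrome P450, rose 2.43-fold (adjusted p = 0.006). Ugdh, which makes UDP-glucuronate, fell on both probes, by 1.04 ± 0.12 on the brighter one (adjusted p = 0.00026). Among 18 genes that supply NADPH 4 rose and 1 fell, and 1 rose without siControl replicate 1 at day 0.

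The promoters of these genes were searched for the letters of the sites that Bach1 and Nrf2 are known to bind, in RefSeq sequence from 250 bases before to 50 bases after each gene's start. The letters were GCTGANTCA, the core of the Maf recognition element, TGACNNNGC, the core of the antioxidant response element, and TGANTCA, the AP-1 site, which lies within the Maf core. Both strands were read, and the promoters of 1 chromosome were left out of the search and of every share. Of the 197 genes called higher 144 had a promoter among those searched, and of the 441 called lower 329 had one. GCTGANTCA was found for 4 of the 144 genes called higher (2.78%), 6 of the 329 called lower (1.82%) and 1.39% of 11204 tested genes. TGACNNNGC was found for 18.1% of genes called higher, 16.4% of those called lower and 16.5% of tested genes. TGANTCA was found for 23 of the genes called higher (16%), beside 7.29% of those called lower and 6.87% of tested genes. These shares count a gene where any of its promoters held a match, and over all 27025 genes with a searched promoter they were 1.37%, 14% and 8.97%. Counted by promoter instead, all of the same length, the shares over all 32851 searched promoters were 1.19%, 12.4% and 7.81%. For the 193 promoters of genes called higher they were 2.07%, 14% and 11.9%. A match is only a run of letters, and binding was not measured. The 250 bases before the start are shown for 4 genes that passed and hold a match to either of the longer cores, in capitals, from build GRCm38.p6. Dll1 and Gclm rose, and Cxcl10 and Srxn1 fell.
Dll1 promoter, chr17:15376933-15377182, reverse strand: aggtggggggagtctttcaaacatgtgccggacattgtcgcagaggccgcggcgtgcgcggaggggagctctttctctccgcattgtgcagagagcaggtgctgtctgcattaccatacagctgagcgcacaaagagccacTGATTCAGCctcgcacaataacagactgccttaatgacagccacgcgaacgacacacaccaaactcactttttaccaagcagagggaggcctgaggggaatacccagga
Gclm promoter, chr3:122245307-122245556, forward strand: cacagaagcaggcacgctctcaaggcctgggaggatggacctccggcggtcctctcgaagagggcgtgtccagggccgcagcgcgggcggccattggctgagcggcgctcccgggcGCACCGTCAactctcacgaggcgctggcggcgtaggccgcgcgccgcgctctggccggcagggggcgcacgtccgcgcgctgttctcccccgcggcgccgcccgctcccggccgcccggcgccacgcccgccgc
Cxcl10 promoter, chr5:92348890-92349139, reverse strand: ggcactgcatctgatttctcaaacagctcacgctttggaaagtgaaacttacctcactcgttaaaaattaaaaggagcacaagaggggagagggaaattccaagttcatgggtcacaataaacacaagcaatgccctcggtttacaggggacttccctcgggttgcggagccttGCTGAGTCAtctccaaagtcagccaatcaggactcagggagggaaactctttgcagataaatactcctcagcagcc
Srxn1 promoter, chr2:152105274-152105523, forward strand: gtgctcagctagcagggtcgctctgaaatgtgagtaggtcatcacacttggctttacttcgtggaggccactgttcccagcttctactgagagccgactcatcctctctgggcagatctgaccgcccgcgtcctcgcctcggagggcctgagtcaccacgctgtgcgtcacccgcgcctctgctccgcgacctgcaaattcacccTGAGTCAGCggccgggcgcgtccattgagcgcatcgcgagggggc
In Dll1, Cxcl10 and Srxn1 the capitals mark GCTGANTCA on 1 of the strands, and the Cxcl10 match also reads as TGACNNNGC on the other. In Gclm they mark TGACNNNGC. These 4 genes were picked for display, so that their directions are not a result. Among named genes that passed, GCTGANTCA was also found for Adam19 and Cd68, which fell. Hmox1 and Slc40a1 were not in the promoter table.

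Over all tested probes, more were called lower than higher, and the probes called higher were dimmer in siControl cells. The 240 probes called higher were 0.809% of those tested and the 588 called lower 1.98%. The median siControl level was -3.06 for the probes called higher and -0.22 for those called lower, and -0.25 for all tested probes. That level enters the difference, so that this gap follows in part from the choice of probes. Well above background on all 6 day 0 arrays were 156 of the 240 and 425 of the 588. Of the called probes, 238 higher and 587 lower did not overlap between the groups, which by itself held for 21.9% of tested probes in the higher and 15.4% in the lower direction. Without the fold limit the directions were even, with 2610 probes (8.8%) higher and 2469 (8.32%) lower, and median folds of 1.43 and 1.59. These last counts rose to 4812 and 3353 with replicate as a block, and fell to 1477 and 1760 without siControl replicate 2 at day 0. They were 1570 higher without siControl replicate 1 and 1632 higher without siBach1 replicate 3, both at day 0. After background correction by normexp 67 probes were called higher and 272 lower.

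**Figure D2:**
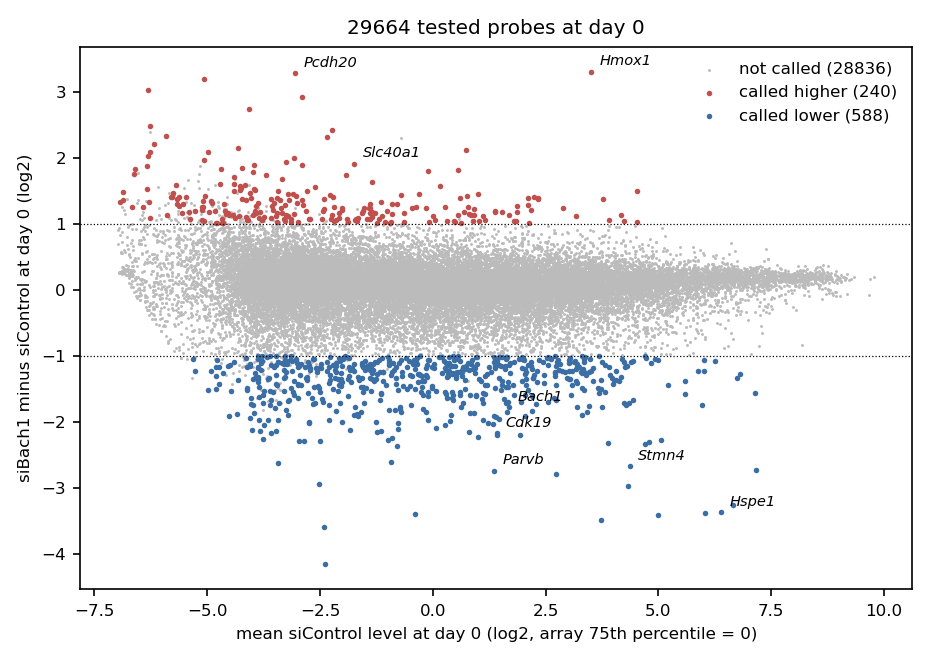
Mean siControl level at day 0 (horizontal axis, log2, with the 75th percentile of the array at 0) against the difference between siBach1 and siControl cells (vertical axis, log2) for 29664 tested probes. Red points were called higher (240), blue points lower (588), and dotted lines mark a 2-fold change. Most red points lie at low levels, and the blue points reach further along the horizontal axis.

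The genes with the largest rises after Hmox1 were of varied function, and most were dim in control cells. Pcdh20, a protocadherin, had levels of -3.38, -2.90 and -2.85 in siControl cells and of 0.25, 0.03 and 0.40 in siBach1 cells, a 9.67-fold rise (adjusted p = 0.0025). Fgfbp1, a secreted protein that releases fibroblast growth factors from the matrix, rose from -2.23, -2.33 and -2.17 to -0.19, 0.22 and 0.48, or 5.32-fold, and its other probe rose by 2.31. Nfatc2, a calcineurin-regulated transcription factor, rose from -3.12, -3.08 and -3.01 to -1.09, -1.23 and -0.91, or 3.99-fold. In all 3 genes the groups were far apart. Pdk4, the kinase that shuts pyruvate dehydrogenase, rose 3.52-fold. Spry1, an inhibitor of receptor tyrosine kinase signalling, rose 3.48-fold. Cxcr4, the chemokine receptor for CXCL12, rose 3.34-fold, and Grhl3, a grainyhead-like factor, 3.45-fold. Gm20655, Speer3, Prr9, Klhl28 and Gpr146 rose by 1.55 to 2.92 on the log2 scale and Stmnd1 rose 2.84-fold. Krt8, a keratin, and Dpp4, a membrane peptidase, rose by 1.70 ± 0.45 and 1.68 ± 0.47, and they no longer passed when any of 4 and 5 of the day 0 arrays was left out, while another Krt8 probe rose by 2.09 (adjusted p = 0.0012). After normexp background correction the log2 rises were 2.27 for Pcdh20, 2.12 for Gm20655, 1.81 for Fgfbp1, 1.48 for Speer3, 1.28 for Nfatc2, 1.04 for Dpp4, 0.89 for Grhl3, 0.77 for Stmnd1 and 0.74 for Krt8.

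**Figure D3:**
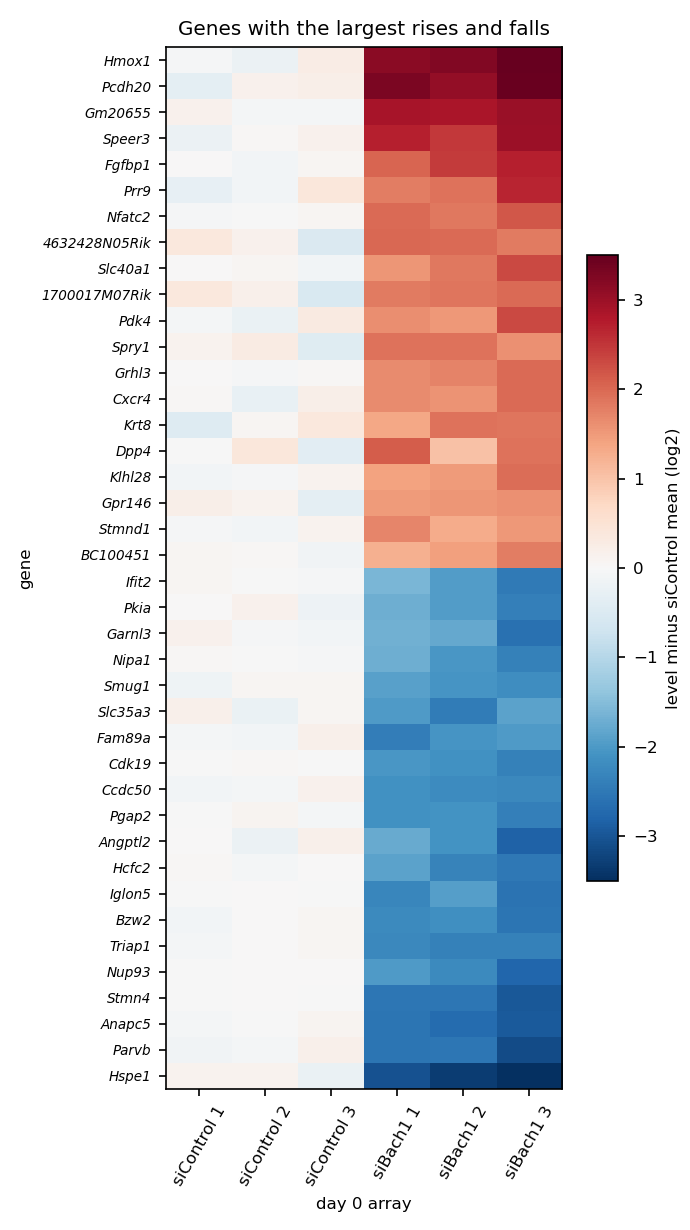
The 20 genes with the largest rises and the 20 with the largest falls among called genes that were well above background on all 6 day 0 arrays and did not overlap. Columns are arrays, rows are genes, and colour gives the level minus the siControl mean (log2). The siControl columns are near 0, and siBach1 replicate 3 is the darkest column for many of the falls, Hspe1 and Parvb among them.

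Among genes well above background on all 6 arrays the largest fall was in Hspe1, which encodes the mitochondrial chaperonin HSP10. Its 3 probes fell by 3.26 ± 0.11, 3.37 ± 0.10 and 3.48 ± 0.25, or 9.58-fold to 11.2-fold. On the brightest of them the levels were 6.58, 6.67 and 6.70 in siControl cells and 3.60, 3.34 and 3.22 in siBach1 cells. Hspd1, which encodes the partner chaperonin HSP60 and is transcribed away from Hspe1 from a shared promoter region, had differences of 0.15 ± 0.12 and 0.09 ± 0.08 (adjusted p = 0.45 and 0.49), with groups that overlapped. The drop was thus measured by all the Hspe1 probes and not by those of its neighbour. Among 25 tested mitochondrial chaperones and proteases 5 fell and 1 rose (3 with replicate as a block, and 0 when any 1 array was left out), and besides Hspe1 only Tomm70a was called. Tomm70a, an import receptor of the outer membrane, fell from 2.70, 2.76 and 2.59 to 1.17, 1.06 and 0.89, or 3.12-fold (adjusted p = 3.8e-06). Clpp, a matrix protease, fell by 0.47 ± 0.08 and Dnaja3, a co-chaperone, by 0.39 ± 0.08.

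Other large falls differed between probes of 1 gene. Cdk19, a kinase of the Mediator complex, fell on all 4 of its probes, by 2.0 to 2.61. Pgap2, an enzyme of GPI anchor maturation, fell on both probes, by 2.20 and 2.10, and Angptl2, a secreted angiopoietin-like protein, by 2.23 and 2.01. Triap1, an inhibitor of apoptosis, fell by 2.33 ± 0.09 on its single probe, from 3.83, 3.89 and 3.94 to 1.65, 1.53 and 1.51. In contrast, Anapc5, a subunit of the anaphase-promoting complex, fell by 2.73 ± 0.11 on 1 probe and had a difference of 0.08 on the other. Parvb, which encodes β-parvin of focal adhesions, had -2.74, -0.77 and 0.23 on its 3 probes, and Hcfc2 had -2.24, 0.27 and 0.08. Ccdc50 fell by 2.20 on 1 of 3 probes, Smug1, a uracil glycosylase, by 2.05 and 0.98 on 2 of 3, Slc35a3, a Golgi sugar transporter, by 2.11 and 0.53 on 2 of 4, and Bzw2 by 2.31 and 2.27 on 2 of 3. After normexp correction the differences of Hcfc2 and Slc35a3 on these probes were -1.34 and -1.27. Of the 441 genes called lower, 244 had another tested probe, and all other probes had the same sign for 153 of them. For 142 another probe passed in the same direction and for 10 in the opposite one. Of the 197 genes called higher, 99 had another tested probe, and it passed in the same direction for 59 and in the opposite one for 6.

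Most genes of DNA replication and mitosis had differences below 0, but a minority of them passed the test. Below 0 were 39.3% of all tested genes. Of 57 tested genes of DNA replication and S phase, 54 had differences below 0, 16 fell and 1 rose, and the median was -0.40. Gins2, a subunit of the replicative helicase, fell from 3.49, 3.40 and 3.31 to 2.19, 2.15 and 1.99, by 1.29 ± 0.14 (adjusted p = 0.00024), and was the only one called, beside 2.22% of all tested genes called lower and 0.895% called higher. Pole2 and Pola1, subunits of DNA polymerases, fell by 0.73 ± 0.11 and 0.88 ± 0.17, and Orc2 of the origin recognition complex by 0.66 ± 0.10. Another Pole2 probe, which did not pass, had 0.16. Ccne1, cyclin E1, which drives entry into S phase, rose from 3.79, 3.79 and 3.88 to 4.47, 4.61 and 4.86, by 0.82 ± 0.17 (adjusted p = 0.0088). The 16 falls were 28 with replicate as a block, 26 after normexp background correction, 7 without siControl replicate 2 at day 0 and 26 without siControl replicate 2 at day 2.

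Of 60 tested genes of mitosis 58 were below 0, with a median of -0.28, and 7 fell (11.7%), a share near the 9.81% of all tested genes. Nuf2, a kinetochore protein, fell by 1.05 ± 0.19 (adjusted p = 0.0046) and Foxm1, the transcription factor of G2 and M phase genes, by 0.90 ± 0.18 (adjusted p = 0.008). Each had another probe with a difference of -0.29 and -0.35 that did not pass. Cdc25b and Dlgap5 fell by 0.59 ± 0.12 and 0.56 ± 0.11. Without siControl replicate 2 at day 2, which enters only the estimate of spread, 18 genes fell. Of 15 subunits of the anaphase-promoting complex, Cdc26 rose by 0.40 ± 0.12 (adjusted p = 0.039), and no longer passed when any of 4 day 0 arrays was left out, its other probes did not pass, and none but Anapc5 fell. With replicate as a block 2 of these subunits rose.

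The G1 regulators had the lowest median of all lists, -0.55 over 16 tested genes, of which 9 fell and 1 rose. Cdk6, a kinase that D cyclins activate, fell from 3.93, 4.02 and 4.01 to 2.75, 2.51 and 2.40, or 2.70-fold (adjusted p = 1.6e-05). Ccnd2, cyclin D2, fell from 5.51, 5.46 and 5.80 to 4.35, 4.12 and 4.13, or 2.62-fold (adjusted p = 0.00027). Rb1, the pocket protein that these kinases inactivate, fell from 2.07, 2.02 and 2.05 to 1.12, 0.80 and 0.61, or 2.30-fold (adjusted p = 0.00011). All 3 probes of Cdk6 and of Ccnd2 and both of Rb1 passed as lower. Cdkn2c, the inhibitor p18, fell by 0.88 ± 0.10 on the probe chosen and on its other probe as well. Ccnd1, cyclin D1, fell by 0.65 ± 0.16 (adjusted p = 0.021), which was lost without siControl replicate 2 or 3 or without siBach1 replicate 2. Cdkn1b, the inhibitor p27, rose from 2.38, 2.48 and 2.38 to 2.94, 3.0 and 3.12, by 0.61 ± 0.10 (adjusted p = 0.0018). Cdkn1a, the inhibitor p21, had 0.24 ± 0.08 on its brightest probe (adjusted p = 0.083), which passed as higher with replicate as a block. Its other probes, which did not pass, had -0.35 ± 0.17, with groups that did not overlap, and -0.04 ± 0.11. Both cyclins and inhibitors were thus among the genes that fell. Of 45 tested replication-dependent histone genes 41 were below 0 and 2 fell, Hist1h3d by 0.74 ± 0.11 and Hist1h1a by 0.61 ± 0.17, the latter lost when any of 5 day 0 arrays was left out, and 6 fell with replicate as a block. Histone mRNA from these genes is largely without poly(A), and near-identical copies may share probe signal.

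**Figure D4:**
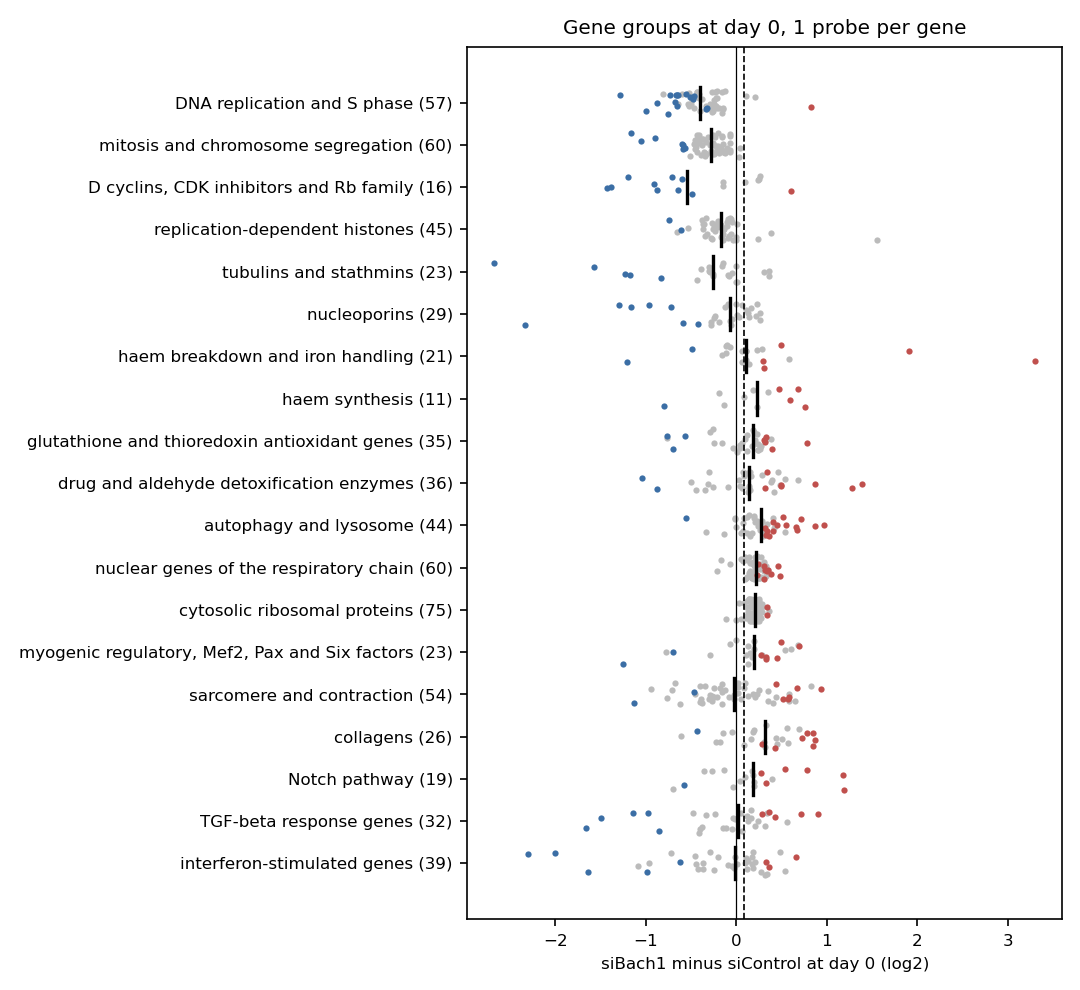
Difference between siBach1 and siControl cells at day 0 (horizontal axis, log2) for the tested genes of 19 lists, with 1 probe per gene and the number of genes in parentheses. Red points rose and blue points fell at an adjusted p under 0.05, grey points did not pass, short black bars are medians, and the dashed line is the median of all 15642 genes (0.08). The medians of the replication, mitosis and G1 regulator lists lie at -0.40, -0.28 and -0.55, left of all the other lists drawn.

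Structural genes with large falls included tubulins, nucleoporins and focal adhesion proteins. Of 23 tested tubulin and stathmin family genes 5 fell and 4 of these were called, with a median of -0.26, and 2 rose with replicate as a block. Tubb6, a β-tubulin, fell from 7.17, 7.09 and 7.17 to 5.76, 5.63 and 5.33, or 2.97-fold (adjusted p = 2.5e-05). Stmn4, a stathmin, fell from 4.36, 4.37 and 4.36 to 1.84, 1.83 and 1.40, or 6.38-fold (adjusted p = 0.0003). Tubb3, a tubulin also used as a neuronal marker, fell 2.25-fold and was 1 of 2 neuron and glia markers that fell, and Map1b, a microtubule-associated protein, 2.34-fold, with 1 of 3 Map1b probes at 0.06. Of 29 nucleoporins 7 fell and none rose. Nup93, a scaffold subunit, fell from 4.68, 4.71 and 4.72 to 2.72, 2.47 and 1.93, or 5.03-fold. Ndc1, which anchors the pore in the membrane, fell 2.45-fold and Nupl1 2.25-fold on 1 probe each, while other probes of both, which did not pass, had -0.10 for Ndc1 and -0.13 and 0.04 for Nupl1. Rae1, an mRNA export factor, fell on both probes, by 0.72 and 0.78. The median of the nucleoporins was -0.07 and the lower quartile -0.28, and 1 rose with replicate as a block.

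Of 40 tested genes of integrins, laminins and focal adhesions 8 fell (20%) and 4 rose (10%), beside 9.81% and 10.1% of all tested genes. Lims1, which encodes the adaptor PINCH1, fell from 3.81, 3.97 and 3.67 to 2.75, 2.71 and 2.57, or 2.20-fold (adjusted p = 3.7e-05), on both probes. Vcl, vinculin, fell by 0.89 ± 0.10 (adjusted p = 0.00033), and another of its probes, which did not pass, had 0.47. Lama2, the laminin chain of muscle basement membrane, rose by 0.88 ± 0.11, and the integrin subunits Itgb5 and Itgb8 by 0.72 ± 0.11 and 0.88 ± 0.14. The 26 tested collagens had a median of 0.32, and 7 of them rose and 1 fell, and 4 rose without siControl replicate 1 at day 0. Col4a5, a basement membrane chain, rose by 0.84 ± 0.08 and Col5a3 by 0.85 ± 0.13, while another Col5a3 probe, which did not pass, had -0.36. Of 35 metalloproteinases and inhibitors 4 rose and 8 fell, and 5 fell after normexp background correction. Mmp15, a membrane-bound matrix protease, rose from -2.10, -2.22 and -2.25 to -0.85, -1.05 and -0.92, or 2.38-fold, and Adam9, a sheddase, 2.16-fold. Mmp10, stromelysin-2, fell from -2.39, -2.20 and -2.22 to -3.54, -3.67 and -3.68, or 2.57-fold, with -0.55 after normexp correction, and Timp3, a tissue inhibitor of these proteases, fell by 0.98 ± 0.13. Of 23 cadherins and protocadherins 6 rose, among them Cdh15, the cadherin of myoblasts, and Pcdh1 by 0.68 ± 0.08, with another Pcdh1 probe at -0.06, and 2 fell, neither of which passed without siControl replicate 1 at day 0.

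The myogenic factors Myod1 and Myog showed small differences that did not pass. Myod1 had levels of 2.96, 3.38 and 3.25 in siControl cells and of 3.55, 3.18 and 3.26 in siBach1 cells, and the groups overlapped, with a difference of 0.13 ± 0.13 (adjusted p = 0.53). Myog, myogenin, had levels of 2.79, 2.52 and 1.99 against 2.87, 2.56 and 2.19, a difference of 0.11 ± 0.21 (adjusted p = 0.78). Myf5 was not tested. Of 23 tested genes on the list of myogenic regulators 6 rose and 2 fell, with a median of 0.19. The list also held Cdh15, which encodes M-cadherin and is counted among the cadherins and the myoblast markers too. Cdh15 rose by 0.45 ± 0.09 (adjusted p = 0.0051) and Six5, a homeobox factor, by 0.70 ± 0.14 (adjusted p = 0.0072). Msc, musculin, a repressor of MyoD activity, fell from -0.76, -0.71 and -0.59 to -1.78, -1.83 and -2.20, or 2.38-fold (adjusted p = 0.0054). Mef2c fell by 0.69 ± 0.13 on the brightest of its 3 probes (adjusted p = 0.0057), and another of its probes, not well above background on any of the 6 arrays, passed as higher, with 1.25. With replicate as a block 4 fell, and without siBach1 replicate 3 at day 0 2 rose. Of the 8 tested myoblast markers 4 rose, Cdh15 among them, and 2 without siControl replicate 1 at day 0. Of 54 sarcomere genes 6 rose (11.1%) and 2 fell (3.7%), beside 10.1% and 9.81% of all tested genes, with a median of -0.02. With replicate as a block 10 sarcomere genes rose and 6 fell, and without siBach1 replicate 1 at day 0 2 rose. Mylk2, the skeletal myosin light chain kinase, rose by 0.57 ± 0.09 and Lmod3, which builds thin filaments, by 0.93 ± 0.21.

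Among bHLH partners and inhibitors of MyoD, 3 of 18 tested genes rose and 1 fell. Bhlhe41, a repressor of MyoD, rose from -2.96, -3.65 and -2.94 to -1.75, -2.0 and -1.72, or 2.56-fold (adjusted p = 0.0012). Snai2, the repressor Slug, fell from 3.0, 2.98 and 2.86 to 2.11, 1.92 and 1.89, by 0.98 ± 0.11 (adjusted p = 0.0003). Of 19 tested Notch genes 6 rose and 1 fell, with a median of 0.19. The ligand Jag1 rose from -1.5, -1.46 and -1.05 to -0.22, -0.34 and 0.09, or 2.27-fold (adjusted p = 0.0017), and the ligand Dll1 from -2.89, -2.46 and -3.08 to -1.21, -1.41 and -2.23, or 2.29-fold (adjusted p = 0.0099). Dll1 no longer passed in a fit of the 6 day 0 arrays alone. Hey1, a Notch target, rose by 0.78 ± 0.13 and Rbpj, the DNA-binding partner of the Notch receptors, fell by 0.58 ± 0.10 on the brighter probe and by 0.71 on the other. Among the Notch genes named here, the ligands and the target rose while the nuclear partner fell, and most of the list did not pass.

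Growth factor systems held rises, falls and members that did not pass. In the FGF system 5 of 22 tested genes rose and 1 fell, and Fgfbp1 and Spry1 were called, as was Fgf9, a ligand that was not well above background on any siControl array and was so on 2 of 3 siBach1 arrays, with a difference of 0.59 after normexp correction. Spred1, another inhibitor of this signalling, rose by 0.49 ± 0.08, and Etv4, a transcription factor that FGF signalling induces, fell by 0.70 ± 0.15. In the insulin-like growth factor system 8 of 31 tested genes rose and 3 fell, and 5 rose without siControl replicate 2 and 1 fell without siControl replicate 1 at day 0. Igfbp3, a binding protein, rose from -0.63, -0.78 and -0.68 to 0.71, 0.90 and 0.57, or 2.69-fold (adjusted p = 0.00023). Fbxo32, which encodes the ubiquitin ligase atrogin-1, rose from -1.33, -1.49 and -1.73 to -0.18, -0.45 and -0.22, or 2.35-fold (adjusted p = 0.00011). The mRNA-binding protein gene Igf2bp2 rose by 0.75 ± 0.09, and the imprinted RNA H19 by 0.46 ± 0.08. Foxo1, a factor that drives Fbxo32, had 0.12 ± 0.23 and 0.03 ± 0.15 on its probes.

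Of 40 tested genes of the Smad and TGF-β family 3 fell and 1 rose, and 6 rose with replicate as a block. Tgfbr1, the type I receptor, fell from 0.84, 1.00 and 0.92 to -0.18, -0.34 and -0.22, or 2.24-fold (adjusted p = 3.6e-05), with another probe at -0.40 that did not pass. Smad2 had 0.12 ± 0.09 and 0.03 ± 0.12 and Smad3 0.17 ± 0.10 and 0.23 ± 0.11 on their probes, none of which passed, and Smad5 fell by 0.45 ± 0.08. Of 32 genes that TGF-β is known to induce 5 rose and 5 fell, and those called all fell, while 3 rose without siControl replicate 1 at day 0 and 8 fell with replicate as a block. Loxl2, a lysyl oxidase, fell from 2.53, 2.92 and 2.78 to 1.10, 1.16 and 0.97, or 3.17-fold, with another probe at -0.48 that did not pass. Ctgf, connective tissue growth factor, fell from 3.11, 3.18 and 3.65 to 1.77, 1.39 and 2.30, or 2.81-fold (adjusted p = 0.011), and Tnc, tenascin C, fell 2.21-fold. Thbs1, thrombospondin 1, rose by 0.90 ± 0.16. In the Wnt pathway 7 of 43 tested genes rose and 5 fell, and 11 rose with replicate as a block. Lef1, a nuclear effector, rose by 0.90 ± 0.14, the receptor Fzd3 rose by 0.62 ± 0.08, and Dkk2, a secreted regulator, fell 3.30-fold (adjusted p = 0.0041), with a log2 difference of -0.96 after normexp correction. Without siControl replicate 2 at day 0, 2 genes of the Wnt list rose, and without siControl replicate 1 at day 0, 2 fell.

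Interferon and chemokine genes held a few large changes. Of 39 tested interferon-stimulated genes 5 fell (12.8%) and 3 rose (7.69%), with a median of -0.01. These shares were near the 9.81% and 10.1% of all tested genes. Ifit2, which binds foreign RNA, fell from -1.21, -1.27 and -1.31 to -2.86, -3.21 and -3.73, or 4.02-fold (adjusted p = 7.8e-05). Cxcl10, a chemokine that interferon induces, fell from -2.85, -2.87 and -2.87 to -4.66, -5.08 and -5.73 (adjusted p = 0.0016), and was well above background on 1 of 3 siBach1 arrays. After normexp correction the differences were -1.12 for Ifit2 and -0.58 for Cxcl10. Without siControl replicate 1 at day 0 none of the 3 rises passed and 2 genes fell. Of 28 chemokine and interleukin ligands 7 rose and 3 fell, and 5 fell without siBach1 replicate 1 at day 0. Il33, an alarmin, rose from 2.27, 1.72 and 1.61 to 3.46, 2.94 and 2.74, or 2.26-fold (adjusted p = 0.0057), and Cxcl1 by 0.97 ± 0.17. Of 30 tested p53 targets 6 fell and 2 rose, and 6 rose with replicate as a block. Ei24, an endoplasmic reticulum protein of autophagy, fell on all 3 probes, by 1.71 ± 0.10 on the brightest (adjusted p = 6e-06), and Pmaip1, which encodes the BH3 protein Noxa, rose from 1.17, 1.16 and 1.02 to 2.34, 2.04 and 2.32, or 2.17-fold (adjusted p = 8.2e-05).

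Autophagy, respiratory chain and ribosomal protein genes had small differences above 0. Of 44 tested genes 39 were above 0, beside 60.7% of all tested genes, 14 rose, 1 fell, and the median was 0.28. Calcoco1, an autophagy receptor, rose by 0.96 ± 0.13, Wipi2, which acts at the forming autophagosome, by 0.71 ± 0.10, Ulk1, the initiating kinase, by 0.67 ± 0.12, and Atg12, a ubiquitin-like conjugating protein, by 0.55 ± 0.07. Gabarapl1 fell by 0.56 ± 0.07. The rises numbered 23 with replicate as a block and 8 without siControl replicate 1 at day 0. Nuclear genes of the respiratory chain had a median of 0.22, with 57 of 60 above 0 and 10 that rose. Atp5f1 and Uqcrh rose by 0.48 ± 0.07 and 0.46 ± 0.08. The 10 rises were 28 with replicate as a block, 2 after quantile normalization and 2 without siControl replicate 1 at day 0. Of 75 cytosolic ribosomal protein genes, 73 were above 0 with a median of 0.21, but 2 rose, and the median was 0.04 after quantile normalization. With replicate as a block 26 of them passed as higher. The medians of 41 glycolysis genes, 38 proteasome genes and 32 cholesterol genes were 0.02, 0.10 and -0.02.

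Some probes were above background in only 1 group. For these the fold is a lower bound, the mean of the group in which they were bright against, on each array of the other group, the higher of the dimmest signal that counted as above background and the probe's own signal. Of 29664 tested probes, 8 such probes were brighter in siBach1 cells, of which 5 were called, and 70 in siControl cells, of which 35 were called. Detection itself was lower in siBach1 cells. Well above background were 31740, 29105 and 26920 probes on the siBach1 arrays, against 32869, 29680 and 27908 on the siControl arrays. Its part in the 8 and 70 was not tested. Lsmem1, a membrane protein of muscle, was at least 2.54-fold higher in siBach1 cells, the only group in which all 3 arrays were above background, so that no test is given. Car6, a secreted carbonic anhydrase, was at least 3.93-fold lower (adjusted p = 0.011), Afap1l1, an actin filament adaptor, at least 3.61-fold lower (adjusted p = 2.3e-05), and Slc30a9 and Csnk1g1 at least 2.11-fold lower each.

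The same probes were measured on the separate day 2 arrays, where the changes were mostly of the same sign. They were chosen by their day 0 change, so that smaller changes at day 2 follow in part from the choice. Over all tested probes, 452 were called higher and 193 lower at day 2. Of the 240 probes called higher at day 0, 201 were above 0 at day 2, with a median of 0.53, and 89 (37.1%) passed as higher, beside 5.75% of all tested probes. Of the 588 called lower, 535 were below 0 at day 2, with a median of -0.55, and 289 (49.1%) passed as lower, beside 6.26%. Their day 0 medians, which the choice of probes fixed, were 1.24 and -1.31. At least 2-fold, 51 were called higher at day 2, beside 1.52%, and 73 lower, beside 0.651%. In the reverse direction 3 and 4 probes passed. The fit gave each probe the same spread at both days, and a small spread helps a probe to pass at either. The shares that passed at day 2 were thus not independent of the choice of probes at day 0. Over all tested probes the test of the difference between the days passed for 4.59%. Hmox1 was 3.12 ± 0.14 higher and Bach1 1.97 ± 0.11 lower at day 2, and Hspe1 3.07 to 3.17 lower. Mgst2 was 4.23 higher on the day 2 arrays (adjusted p = 1.4e-05). Spry1, high at day 0, was 0.67 ± 0.17 lower at day 2 (adjusted p = 0.029). The list medians at day 2 were -0.19 for DNA replication, -0.38 for mitosis and -0.44 for the G1 regulators. Of 36 detoxification genes 13 rose at day 2, beside 6.35% of all tested genes, and of 45 histone genes 24 fell, beside 7.42%. The medians were 0.01 for autophagy, -0.13 for the respiratory chain and -0.14 for ribosomal proteins.

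**Figure D5:**
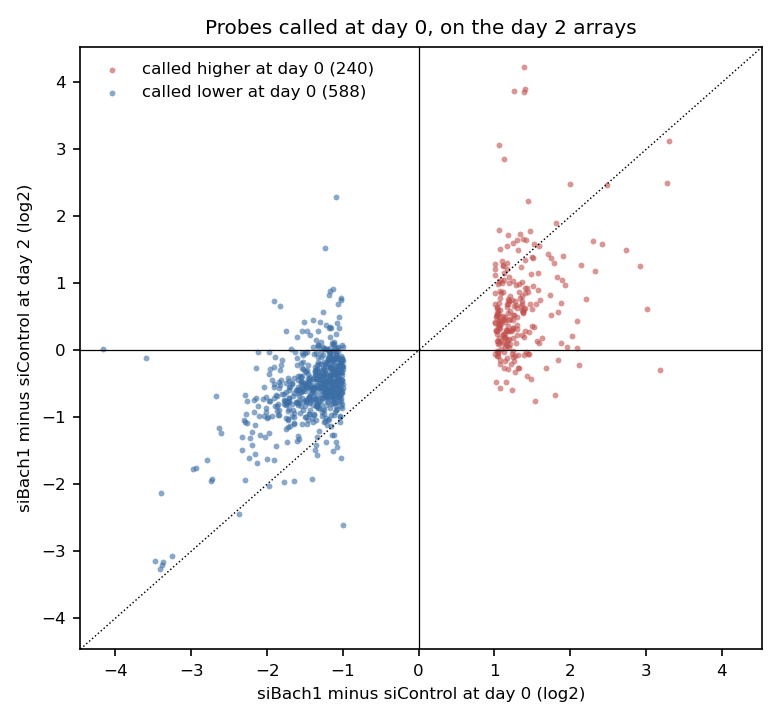
Probes called at day 0, with the difference between siBach1 and siControl cells at day 0 (horizontal axis, log2) and on the separate day 2 arrays (vertical axis, log2). Red points were called higher at day 0 (240), blue points lower (588), and the dotted line marks equal values. Of the red points 201 lie above 0 on the vertical axis and of the blue points 535 lie below it.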

How the data were processed

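RNA from C2C12 cells was hybridised to 1-colour Agilent mouse arrays, 1 array per sample. The authors deposited the Feature Extraction intensity of each spot, already background-corrected by the scanner software, and a table of intensities and log2 values. These log2 values were shifted by each array's 75th percentile and centred on each probe's median over the arrays. Here the processed intensity was taken, control and outlier spots were dropped (76 to 110 outlier spots per array, none saturated), spots of a probe were averaged, and log2 values minus the array's 75th percentile were used. The levels used here were not centred on probe medians. As a check of the deposited table, log2 of its intensities, shifted and centred as above, came within 0.00034 of its log2 values. The series table held 0 columns of other samples. Probes entered the test if all 3 arrays of at least 1 condition, at either day, exceeded background. The 12 arrays were fitted as 4 groups with limma 3.58.1 in R 4.3.3, two-sided, with Benjamini-Hochberg adjustment, and tables were made in Python 3.11 with pandas 2.3.3 and numpy 2.4.6. Normexp with an offset of 50 on median signals, quantile normalization, other filters, blocks, a Student's t-test (the methods' t-test) and leaving out each array were alternatives.

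The members and the 46 gene lists were chosen with earlier results of these data known. Lists take the brightest tested probe of each gene. Genes named are Bach1, Hmox1, Hspe1 and other known members of the pathways whatever their change, the 20 largest rises and falls of called genes well above background on all 6 arrays and without overlap, up to 4 members per list and direction by adjusted p, and the 5 largest bounds, from which a selection is printed. Same-numbered arrays share a slide and row, and their residuals correlated by 0.142 to 0.595 in all 18 pairs, above the limit of 0.1. Arrays of replicates 1 and 2, on the same slide, correlated by 0.10 to 0.26 also where their numbers differed. Arrays of replicate 3 correlated with those of replicates 1 and 2 by -0.44 to -0.24. A shared number and a shared slide were thus not told apart. The reported fit has no block, and blocked counts are given beside lists whose counts they moved most.

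On simulated data with 200 of 29664 probes changed, 82% of changes of 1.5 and 92% of changes of 2.5 (log2) were called, with 2 false calls, and 0 calls were made where nothing changed. The simulated noise was independent between arrays, while the residuals of the real arrays correlated, so that effects of slide or position were not simulated. RefSeq accessions were given for 37153 probes, of which 33465 matched the gene table used and 31840 carried the symbol listed there. The array's own symbols were kept.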

Additional observations from a re-analysis of the deposited data

Results flagged for a closer look

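The difference between siBach1 and siControl cells was not the same at day 2 as at day 0 for a number of the named genes, by the limma test of the difference between the 2 days with Benjamini-Hochberg adjustment over all tested probes, of which 4.59% passed. Most of these genes were named for their day 0 change and the test shares the day 0 arrays, so that a move towards 0 follows in part from the choice. Values are the day 2 difference minus the day 0 difference on the log2 scale. Groups of 3 arrays were not tested for single outlying arrays.

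The effect was lower at day 2 for genes with day 0 differences above 0. The change was -1.66 for Gm20655, -1.23 for Speer3, -2.33 for Prr9, -2.47 for Spry1, -1.22 for Cxcr4, -1.44 for Klhl28 and -0.67 for Cdkn1a. For further genes it was -0.64 for Urod, -0.73 for Uros, -1.01 for Pmaip1, -0.71 for Cdh15, -0.91 for Hey1, -2.05 for Fgf9 and -1.81 for Igfbp3. It came to -0.70 for Igf2bp2, -0.60 for H19, -0.76 for Fzd3, -1.26 for Mmp15, -0.89 for Adam9, -0.85 for Calcoco1 and -0.45 for Atp5f1. The change was -0.56 for Uqcrh.

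The effect was higher at day 2 for genes that fell at day 0. The change was 0.81 for Anapc5, 1.99 for Stmn4, 1.04 for Nup93, 0.83 for Triap1, 1.26 for Bzw2, 0.79 for Pgap2 and 0.98 for Ccdc50. For further genes it was 1.25 for Cdk19, 1.12 for Slc35a3, 1.33 for Smug1, 1.00 for Mfsd7b, 0.89 for Fech, 0.73 for Ugdh and 0.98 for Cdk6. It came to 0.99 for Ei24, 0.64 for Tomm70a, 0.67 for Snai2, 0.77 for Tgfbr1, 0.98 for Loxl2 and 0.80 for Timp3. The change was 0.91 for Lims1, 1.05 for Mmp10, 0.98 for Tubb6, 0.97 for Ndc1 and 0.89 for Nupl1. For Maf and Mgst2, which rose at day 0, the rise was larger at day 2, by 0.95 and 2.84.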

How the results depend on the processing

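Of 236 named probes that passed, 135 passed under every alternative and 166 when any 1 array was left out. The 240 higher and 588 lower calls were 1050 and 1516 at a fold limit of 1.5, 140 and 348 with 1 probe per gene, 67 and 272 after normexp background correction, and 147 higher under the methods' t-test after Benjamini-Hochberg adjustment. Leaving out 1 array gave 216 to 303 higher and 526 to 651 lower. By the adjusted p alone, the 2610 higher and 2469 lower probes were 1587 and 1534 with 1 probe per gene, 1034 and 1446 with no filter on dim probes, and 4646 and 3708 under the methods' t-test without adjustment. The higher count was 4812 with the replicate block, 4945 with slide as a block, 1658 with only the 6 day 0 arrays and 1439 under the adjusted t-test. Among named probes the block changed the calls of Keap1, Nqo1 and Cdkn1a, which then passed, and no other. Leaving out 1 array gave 1477 to 2668 higher, the fewest without siControl replicate 2 at day 0, and 1760 to 2618 lower. The share of called probes that were higher was 29.0%, 22.7% after quantile normalization and 19.8% after normexp. By the adjusted t-test 73 of 267 named probes no longer passed, among them Bhlhe41, Ctgf, Dll1, Fgf9 and Il33. Some differences that did not pass changed sign, among them Nfe2 from -0.55 and 1 Nfe2l2 probe from -0.39. After quantile normalization they were -0.22 for Bach2, -0.0076 for Ftl1, -0.059 for Ftl1 and -0.0047 for Hspd1, and after normexp 0.067 for Nfe2l2, 0.046 for Nfe2, 0.12 for Cdkn1a and -0.046 for Foxo1. Leaving out 1 array gave -0.24 to 0.37 for Bach2, -0.085 to 0.026 for Nfe2l2, -0.069 to 0.21 for Ftl1, -0.039 to 0.072 for Smad2, -0.11 to 0.16 for Foxo1, -0.11 to 0.29 for Myog, -0.0058 to 0.18 for Nfe2l3, -0.23 to 0.014 for Blvrb, -0.10 to 0.32 for Foxo1 and -0.15 to 0.061 for Cdkn1a, where a gene named again is another probe. The causes were not tested. Probes near background, more common among the higher calls, have the least certain folds, and 3 arrays a group limit the precision.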
